A study of Mus musculus with 12 samples.

Results

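This account covers the Cyp4a omega-hydroxylase genes of mouse liver: Cyp4a10, Cyp4a12a, Cyp4a12b, Cyp4a14, Cyp4a31 and Cyp4a32. They are 6 of the 27179 IDs in the count tables, chosen by name after Cyp4a levels and heavy over light ratios in these same libraries had been seen. Their own values are therefore given as a description. All 6 passed the filter on low counts, which left 10555 genes.

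Livers of male C57BL/6 mice were run on sucrose gradients and RNA was counted from pooled fractions, with a heavy polysome and a light polysome library for each animal. Wild-type mice ate chow (chow 1, chow 2 and chow 3) or, for 24 h, a ketogenic diet, which supplies mostly fat, (keto 1 and keto 2), and a fed mouse carried S209A on both eIF4E alleles (S209A, 1 animal). eIF4E binds the mRNA cap, and S209A removes the serine that the MNK kinases phosphorylate. The titles call chow 3 and S209A fed rather than chow, and no age is given. The labels do not state which fractions were called heavy.

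CYP4A enzymes are microsomal cytochromes P450 that add a hydroxyl group to the terminal, omega, carbon of a fatty acid, the step that opens its oxidation to a dicarboxylic acid. In mouse liver Cyp4a10 and Cyp4a14 are classical targets of PPARα, the nuclear receptor that fatty acids and fibrate drugs activate and that partners with RXR on direct repeats of a hexamer. Cyp4a12a is known as the male-typical member and makes 20-HETE from arachidonic acid in mouse kidney. Cyp4a12b is its near-identical copy, and Cyp4a31 and Cyp4a32 are close relatives of Cyp4a10.

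The members form a tandem cluster on mouse chromosome 4 that spans 323462 bp in GRCm38.p6. In order along the chromosome they are Cyp4a12a (Entrez 277753, 115299046 to 115332815), Cyp4a12b (13118, 115411624 to 115439034), Cyp4a14 (13119, 115486200 to 115496158), Cyp4a10 (13117, 115518287 to 115533649), Cyp4a31 (666168, 115563627 to 115579015) and Cyp4a32 (100040843, 115600927 to 115622507). The protein-coding Cyp4a30b lies between Cyp4a12b and Cyp4a14 and had 0 counts in all 12 libraries, and Cyp4a29, on the Cyp4a12a side, also had 0. Cyp4b1, the next gene after Cyp4a32, had 186 counts in all. The counts thus lay in the 6 members within this stretch: 50068 for Cyp4a14, 26533 for Cyp4a10, 1830 for Cyp4a31, 1758 for Cyp4a32, 1480 for Cyp4a12a and 609 for Cyp4a12b over all libraries. Levels of different members are not ranked here, since their transcript lengths were not used.

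Of the 6 members, Cyp4a32 matched the RefSeq promoter table (GRCm38.p6). Its upstream bases, chr4:115600688-115600926 on the plus strand, are shown because they make up most of the window searched for PPARα, STAT5 and clock motifs. Capitals mark the TATA-like letters TTTATA.

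Cyp4a32: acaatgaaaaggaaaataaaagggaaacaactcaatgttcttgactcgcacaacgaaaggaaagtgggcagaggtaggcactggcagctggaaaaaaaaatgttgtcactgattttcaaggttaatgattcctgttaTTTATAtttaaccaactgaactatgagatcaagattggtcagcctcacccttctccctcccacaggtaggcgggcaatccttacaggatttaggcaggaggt

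The motif search took both strands of the whole window, 250 bases before to 50 after the start. TATAAA had 1 match, on the minus strand, and 14.2% of 27025 promoters hold one. The hexamer AGGTCA had 0 matches (16.0% of promoters hold one), its direct repeat with 1 base between, AGGTCANAGGTCA, had 0 (0.0444%), and each such repeat also holds the hexamer. The GAS site TTCNNNGAA bound by STAT5 had 0 matches (8.47%), and the D-box TTATGTAA had 0 (0.955%). These counts say only that the letters are not in this window.

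Library totals ran from 3341046 to 13263355 counts, of which nuclear protein-coding genes held 356666 to 1777315, or 4.09% to 39.2%. CPM here is scaled to the TMM library size, and TMM factors ran from 0.324 to 3.12. The file headers name Bowtie2 for both libraries of chow 1 and of chow 2, HISAT2 for those of chow 3 and S209A, and no aligner for keto. The hepatocyte markers summed to 5920 to 13160 CPM. Of 10 kidney tubule markers, 8 were at 0 in every library, Umod, Kap and Aqp2 among them, and the list never passed 0.745 CPM in any library. Chow 1 stood apart for the genes described below, and results that rest on it are given with and without it.

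Cyp4a14 had a wide spread among the chow animals, which rested largely on chow 1. In heavy it stood at 24.8 CPM in chow 1, 1453 in chow 2 and 721 in chow 3, at 248 in keto 1 and 244 in keto 2, and at 712 in S209A. Its light levels were 6.26, 437 and 679 CPM in the 3 chow mice, 287 and 277 in the 2 keto mice, and 799 in S209A. Chow 1 was the lowest animal and both keto animals lay between it and the other chow animals in both pools. Between chow 2 and chow 3 alone, Cyp4a14 differed 1.14-fold on the mean log2 level of both pools. Behind the chow 1 values were 100 heavy and 36 light counts, against 10027 and 3039 in chow 2. The chow mean was 733 ± 714 CPM in heavy and 374 ± 341 in light (SD, n = 3), and the keto mean was 246 ± 2.90 and 282 ± 7.02 (SD, n = 2).

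Cyp4a10 was likewise lowest in chow 1. In heavy it was at 19.6 CPM in chow 1, 844 in chow 2 and 340 in chow 3, at 173 in keto 1 and 161 in keto 2, and at 398 in S209A. In light they were 5.74, 320 and 285 CPM in the chow animals, 192 and 124 in the keto animals, and 371 in S209A. Both keto animals lay within the chow range, and the chow and keto groups overlapped. The chow mean was 401 ± 416 CPM in heavy and 204 ± 172 in light (SD, n = 3).

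Cyp4a31 and Cyp4a32, measured far less deeply, were also lowest in chow 1. Cyp4a31 in heavy was at 3.72, 62.2 and 22.2 CPM in chow 1, 2 and 3, at 23.9 and 10.4 in keto 1 and 2, and at 27.9 in S209A. In light it was at 0.522, 21.4 and 12.2 CPM in the chow animals, at 25.7 and 30.8 in the keto animals, and at 9.64 in S209A. Its chow 1 values rest on 15 and 3 counts, and in light both keto animals lay above all chow animals, as 11.2% of genes did. Cyp4a32 in heavy was at 3.97, 65.1 and 15.0 CPM in chow 1, 2 and 3, at 13.1 and 25.5 in keto 1 and 2, and at 23.9 in S209A. In light it was at 2.09, 29.0 and 12.2 CPM in the chow animals, at 14.5 and 11.3 in the keto animals, and at 20.8 in S209A. For Cyp4a32 the keto animals stayed inside the chow range in both pools, as for Cyp4a14 and Cyp4a10, 3 of the 6 members against 6.98% of genes. That range rests on chow 1 at its lower end. Against chow 2 and chow 3 alone, both keto animals were below both chow animals in both pools for Cyp4a14 and Cyp4a10, 2 of the 6 members against 7.45% of genes.

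The Cyp4a12 pair did not share the low values of chow 1. Cyp4a12a in heavy was at 18.4, 25.5 and 5.76 CPM in chow 1, 2 and 3, at 4.25 and 11.6 in keto 1 and 2, and at 20.9 in S209A. In light it was at 5.57, 12.5 and 23.6 CPM in the chow animals, at 15.8 and 17.7 in the keto animals, and at 39.3 in S209A. Chow 1 was second among the chow animals in heavy and lowest in light, and S209A light was the highest of all libraries. Cyp4a12b in heavy was at 9.19, 20.9 and 2.11 CPM in chow 1, 2 and 3, at 2.20 and 9.27 in keto 1 and 2, and at 5.86 in S209A. In light it was at 3.83, 7.47 and 3.66 CPM in the chow animals, at 12.01 and 8.84 in the keto animals, and at 9.13 in S209A. Both keto animals lay above all chow animals in light (11.2% of genes), with 14 to 63 counts in the 4 keto libraries.

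**Figure D1:**
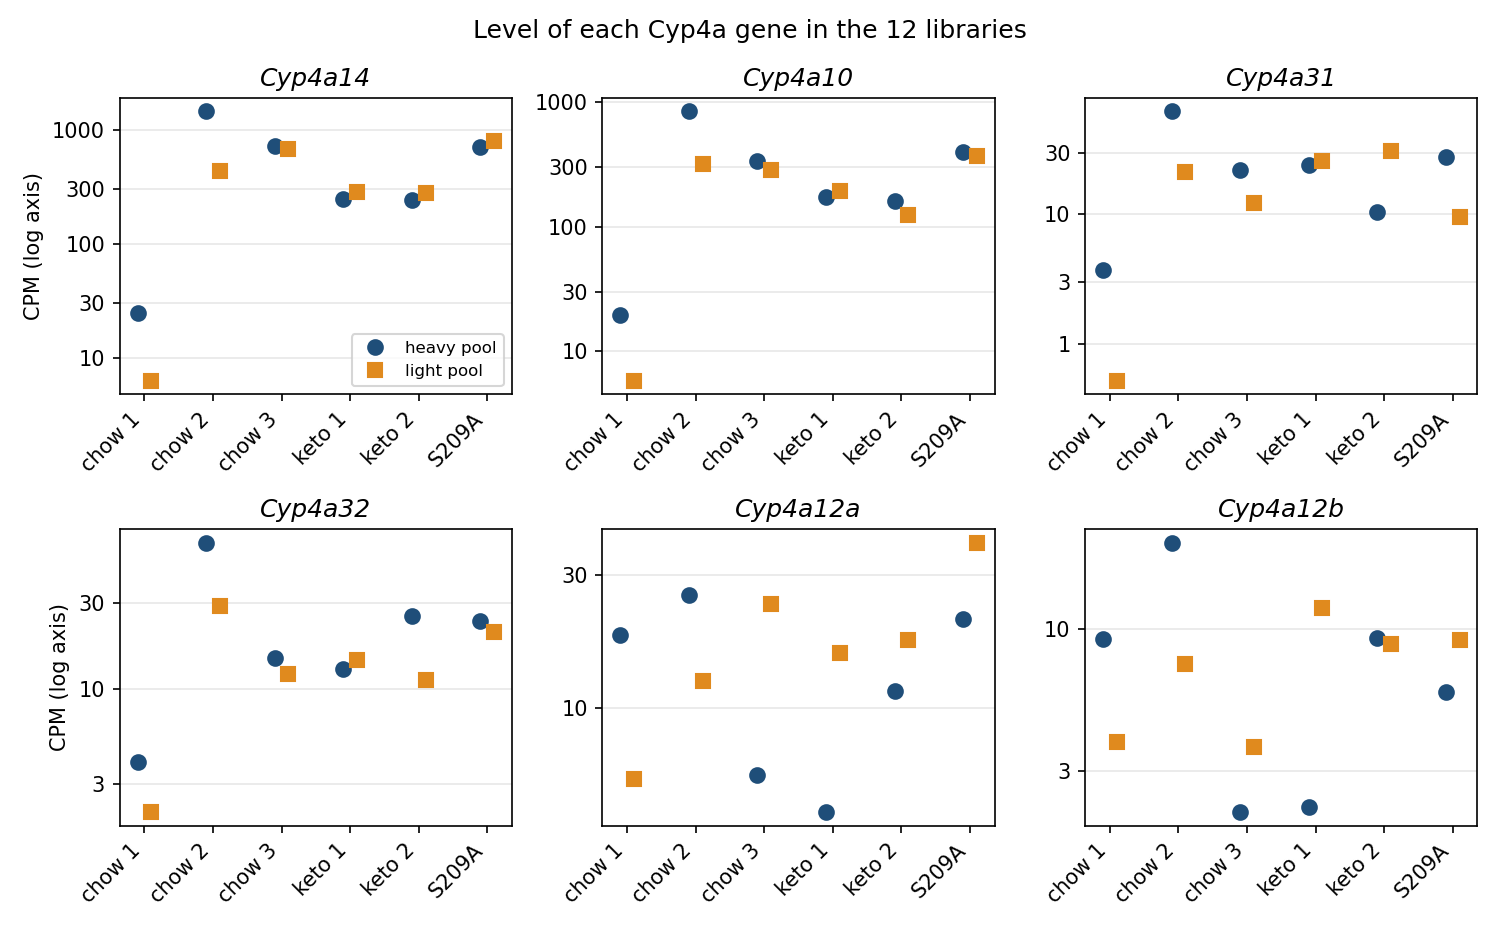
Level of each gene in CPM (log axis, a scale of its own in each panel) in the heavy (circles) and light (squares) library of the 6 animals. Cyp4a14, Cyp4a10, Cyp4a31 and Cyp4a32 are lowest in chow 1 in both pools, and Cyp4a12a and Cyp4a12b are not.

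The spread among animals on the same chow can be set beside that of other genes, on the mean log2 level of both pools. The highest chow animal was 62.2-fold above the lowest for Cyp4a14 and 47.6-fold for Cyp4a10, and 99.6% and 99.5% of genes had a smaller chow range. The range was 20.6-fold for Cyp4a31, 13.8-fold for Cyp4a32, 4.17-fold for Cyp4a12b and 1.74-fold for Cyp4a12a. On the log2 scale the median range over all genes was 1.07, with Cyp4a12b above it at 2.06 and Cyp4a12a below it at 0.80. Without chow 1 all but the Cyp4a12b range narrowed: between chow 2 and chow 3 the difference was 1.14-fold for Cyp4a14, 1.67-fold for Cyp4a10, 2.20-fold for Cyp4a31, 3.17-fold for Cyp4a32 and 1.51-fold for Cyp4a12a, and it stayed at 4.17-fold for Cyp4a12b. For Cyp4a14 18.6% and for Cyp4a10 61.2% of genes differed less between chow 2 and chow 3. Chow 1 and chow 2, whose headers both name Bowtie2, differed for Cyp4a14 by 58.5-fold in heavy and 69.7-fold in light. Summed over the members, Cyp4a counts were 0.0513% of nuclear protein-coding counts in chow 1 heavy and 0.0237% in chow 1 light. The same share was 1.48% and 0.668% in chow 2, 0.854% and 0.806% in chow 3, 0.398% and 0.452% in keto 1, 0.434% and 0.373% in keto 2, and 0.857% and 0.765% in S209A. Being the lowest of the 6 animals in chow 1 in both pools held for 4 of the 6 members and for 5.62% of genes. The libraries hold RNA from polysome pools of whole liver. Fewer cells that make an mRNA, less of it per cell and less of it on polysomes cannot be told apart.

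Other genes of fatty acid oxidation were low in chow 1 as well. Of 19 peroxisomal PPARα targets measured, 11 were lowest in chow 1 in both pools, and the list's median over the other 5 animals was 1.51 above chow 1 on the log2 scale, against 0.02 for all genes. Of 28 mitochondrial and other PPARα targets 17 were lowest there, with a median of 2.02. Ehhadh, the peroxisomal bifunctional enzyme that also works on dicarboxylic acids, was at 28.1 CPM over both pools in chow 1 and at 412, 264, 171, 169 and 316 in chow 2, chow 3, keto 1, keto 2 and S209A. Angptl4, a secreted inhibitor of lipoprotein lipase, was at 3.58 CPM in chow 1 and at 36.5 to 50.9 in the others. Vnn1, a pantetheinase, was at 0.614 CPM in chow 1 on 6 counts and at 6.34 to 14.5 in the others. Pdk4, which holds back pyruvate oxidation, went the other way within this list, with 2.66 CPM in chow 1 and 0.689 to 2.37 elsewhere.

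The receptor and the enzymes around omega-oxidation were less uniform. Ppara itself was at 16.9 CPM in chow 1 and at 34.5 to 75.1 in the others, and of 14 genes of PPARα and its partners 2 were lowest in chow 1 in both pools. Of 16 genes of electron supply and omega-oxidation 5 were. Por, the reductase that hands electrons to microsomal P450s, was at 48.4 CPM in chow 1 and at 93.8 to 350 elsewhere, and Aldh3a2, the fatty aldehyde dehydrogenase that acts after the alcohol step, at 5.22 and at 36.7 to 82.6. Cyb5b, an outer mitochondrial membrane cytochrome b5, was highest in chow 1 at 134.6 CPM, with 25.8 to 60.1 elsewhere. 

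Some lipid synthesis genes and a pair of male-biased genes were highest in the same animal. Of 13 lipogenesis genes 0 were lowest and 6 were highest in chow 1 in both pools, namely Fasn, Acly, Scd1, Srebf1, Mlxipl and Thrsp, where 5.37% of all genes were highest there. The list was mixed: on the mean of both pools 4 of the 13 were lowest in chow 1, such as Elovl6, a fatty acid elongase, at 1.94 CPM against 2.51 to 25.9. Fasn, the fatty acid synthase, was at 157 CPM in chow 1 and at 29.4 to 54.5 in the others, and Srebf1, a transcription factor of lipogenesis, at 51.2 and at 5.0 to 12 in the others. Of 17 male-biased genes 0 were lowest and 2 were highest there in both pools, Hsd3b5 at 26.1 CPM against 0.289 to 1.55 and Elovl3 at 37.4 against 0.527 to 10.2. The male-biased list as a whole was also higher in chow 1. Its median for the other 5 animals minus chow 1 was -1.01 on the log2 scale, against -0.51 for lipogenesis. Clock genes differed too: Dbp, a clock output factor, had 2 counts in chow 1 and 57 to 266 in each other animal, Nr1d1 (REV-ERBα) had 4 and 56 to 227, and 6 of 15 clock genes were lowest in chow 1. In the same list 2 were highest there, Nfil3, a repressor at D-boxes, at 15.8 CPM against 0.722 to 4.83 and Cry1, a repressor in the clock, at 5.11 against 0.457 to 1.37. The general hepatocyte list did not move with them, with 1 of 10 lowest in chow 1 and a median of -0.19. Of 15 pericentral hepatocyte genes 5 were lowest in chow 1 in both pools, with a median of 0.68, and 0 were highest. Of 15 periportal genes 1 was lowest there, with a median of -0.01, and 3 were highest. The part of lipogenic state, clock phase or any other property of this animal in the Cyp4a levels was not tested.

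**Figure D2:**
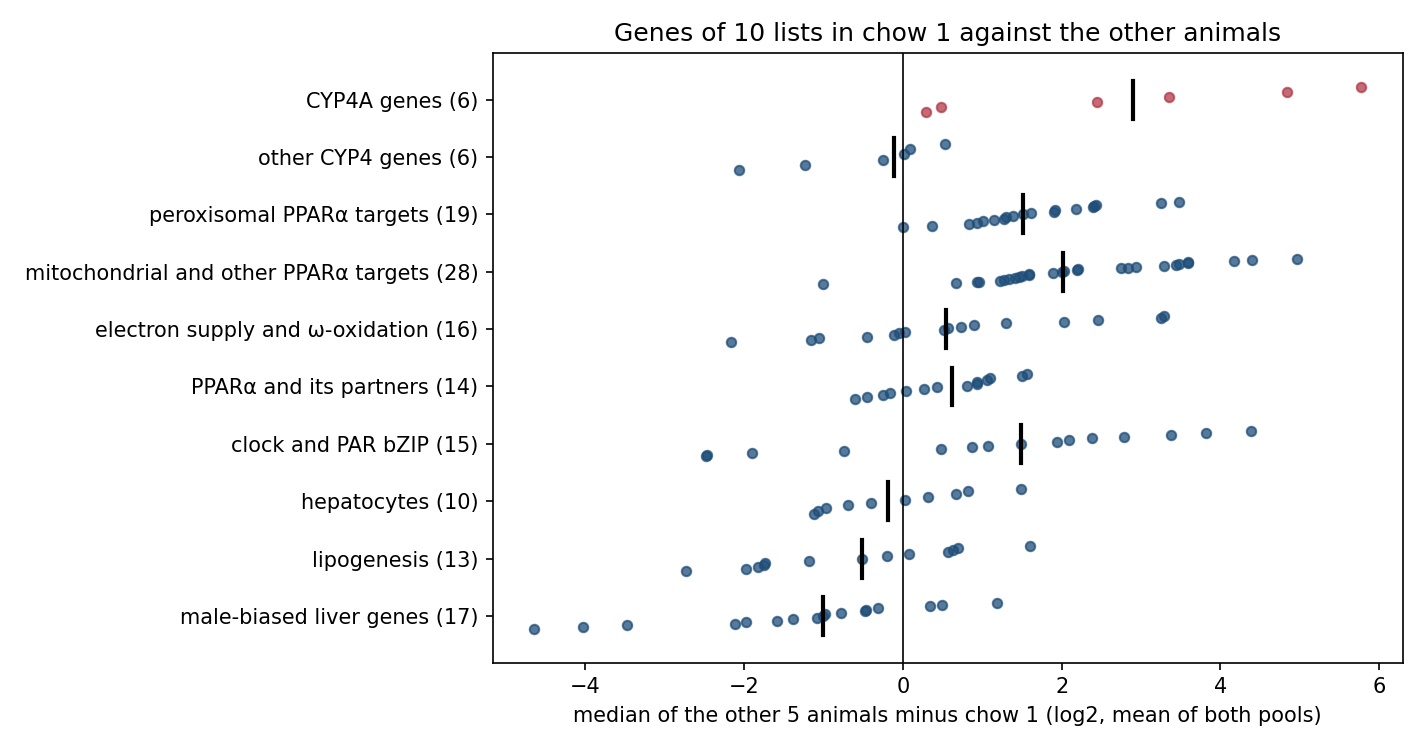
Each point is 1 gene of the named list (measured members in parentheses), placed by the log2 median of the other 5 animals minus chow 1, on the mean of both pools; the bar is the list's median. The Cyp4a points fall into 2 near 0 (the Cyp4a12 pair) and 4 far to the right. Both lists of PPARα targets have medians of 1.51 and 2.02, while the lipogenesis median is -0.51 and the male-biased median is -1.01.

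Over the 12 libraries (6 animals, 2 libraries each) the pattern of Cyp4a14 in log2 CPM was most like that of Cyp4a10 (Pearson r = 0.99), and genes close behind included Pank1 (0.97), Acat1 (0.97) and Ehhadh (0.97), among 5100 well-expressed genes. Pank1 is a pantothenate kinase of coenzyme A synthesis and Acat1 a mitochondrial thiolase. Without the chow 1 libraries, over 10 libraries, the same values were 0.94, 0.88, 0.84 and 0.83. With Cyp4a31 and Cyp4a32 the r of Cyp4a14 was 0.87 and 0.89, and without chow 1 it was 0.27 and 0.57, so the likeness of those 2 rested largely on chow 1. With Cyp4a12a and Cyp4a12b it was 0.43 and 0.17. The genes most like Cyp4a12a were H4c3 (0.92), Gabarapl1 (0.90), Tmem256 (0.89), Ugt2a3 (0.88) and Ces3b (0.88), and its r with Cyp4a12b was 0.70.

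The first comparison set the heavy level of each mRNA against its light level. Libraries were scaled by TMM with 0 ERCC IDs present, so the ratio places a gene relative to other genes. It does not give the share of an mRNA in each pool. The median log2 ratio over all genes was lowest in chow 2, at -0.08, and highest in keto 2, at 0.02. In chow, the log2 ratio of heavy over light was above 0 in all 3 animals for Cyp4a14, Cyp4a10, Cyp4a31 and Cyp4a32, as it was for 12.2% of all genes. For Cyp4a14 it was 1.94, 1.73 and 0.09 in chow 1, 2 and 3, for Cyp4a10 1.73, 1.40 and 0.25. Chow 1 and chow 2 were alike and chow 3 was nearer the median of all genes. For Cyp4a31 the values were 2.33, 1.53 and 0.85 and for Cyp4a32 0.85, 1.16 and 0.30. Cyp4a12a (1.68, 1.01 and -1.98) and Cyp4a12b (1.21, 1.45 and -0.72) were above 0 in chow 1 and 2 and below 0 in chow 3. 

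In keto animals the ratios were near or below 0 for most members. Cyp4a14 had -0.21 and -0.18 in keto 1 and keto 2, and Cyp4a10 had -0.15 and 0.37. Cyp4a31 had -0.11 and -1.54, Cyp4a32 -0.15 and 1.15, Cyp4a12a -1.83 and -0.60, and Cyp4a12b -2.31 and 0.07. For Cyp4a14 and Cyp4a31 every chow animal was above 0 and every keto animal below it. A full split of signs between the diets, in either direction, held for 7.30% of genes. In S209A the ratios were -0.17 for Cyp4a14, 0.10 for Cyp4a10, 1.51 for Cyp4a31, 0.19 for Cyp4a32, -0.90 for Cyp4a12a and -0.61 for Cyp4a12b. Keto 1, keto 2, chow 3 and S209A were thus close together for Cyp4a14 and Cyp4a10, and chow 1 and chow 2 stood above them. Heavy exceeded light for 6 of 6 members in chow 1 and in chow 2, where 46.2% and 45.9% of genes did, and for 4 in chow 3 (48.6% of genes). It did for 0 in keto 1 (48.8%), 3 in keto 2 (50.8%) and 3 in S209A (51.7%).

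**Figure D3:**
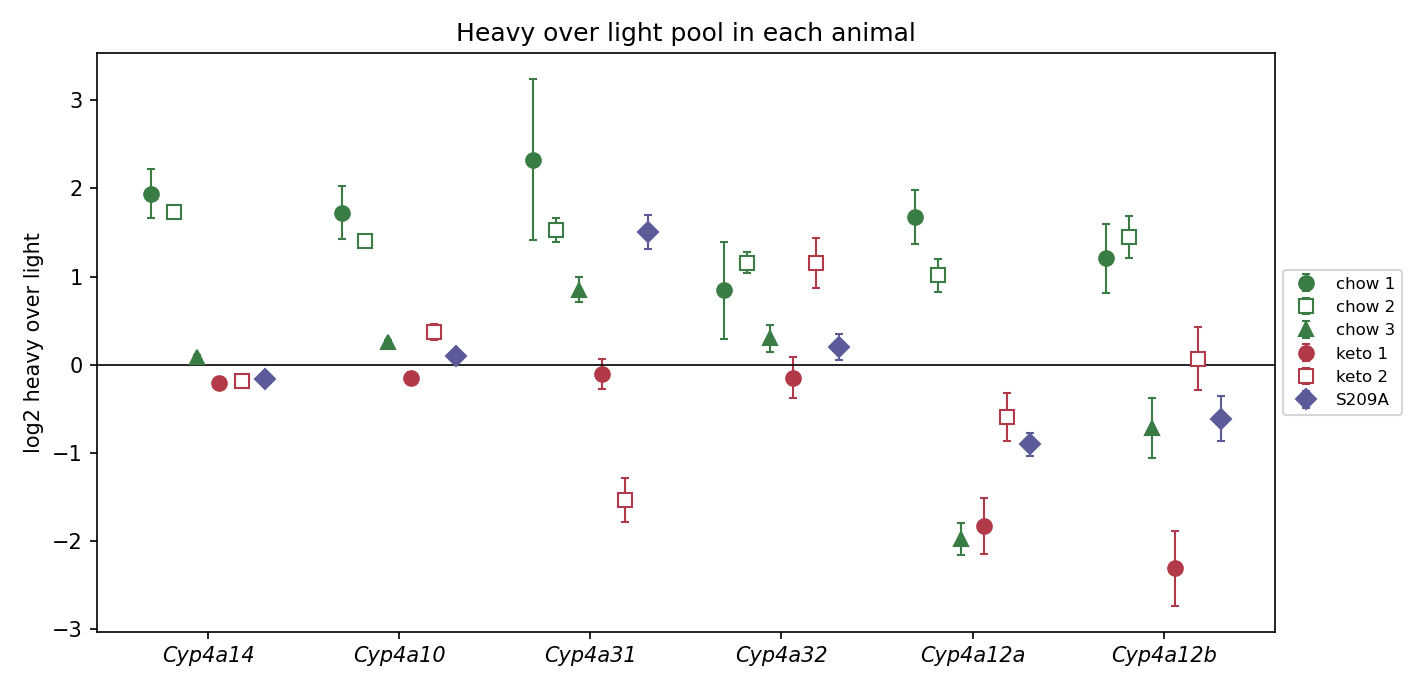
Log2 heavy over light for each gene and animal, with error bars of 1 standard error from counting alone. For Cyp4a14 and Cyp4a10 the points of chow 1 and chow 2 lie between 1.40 and 1.94 and all others between -0.21 and 0.37.

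With each animal's 2 libraries paired in the model, edgeR's quasi-likelihood test called 0 of the 6 members in chow, where 0.227% of 10555 genes were called (24 genes). The fitted heavy over light was 1.25 ± 0.42 for Cyp4a14, 1.11 ± 0.39 for Cyp4a10, 1.48 ± 0.42 for Cyp4a31 and 0.78 ± 0.41 for Cyp4a32 (log2 ± SE, n = 3 animals). It was 0.27 ± 0.45 for Cyp4a12a and 0.68 ± 0.52 for Cyp4a12b. edgeR adjusted p ran from 0.106 to 0.991, and 3 members had an unadjusted p under 0.05. DESeq2 called 2, Cyp4a14 and Cyp4a10, among 94 genes in all, and gave the other 4 members no adjusted p, and limma-voom called 0. Without chow 3 edgeR called 3, with Cyp4a14 at 1.81 ± 0.35, Cyp4a10 at 1.53 ± 0.35 and Cyp4a31 at 1.82 ± 0.47, and called 407 genes in all. Without chow 1 Cyp4a14 was at 0.91 ± 0.50 and no member was called. Chow 3 differs from chow 1 and 2 as an animal, by its header and by its share of nuclear protein-coding counts, which cannot be told apart. This share was larger in light than in heavy for chow 3 (39.2% against 29.7%). The order was reversed for chow 1 (6.53% in light, 15.9% in heavy) and chow 2 (8.16% in light, 22.2% in heavy). The part of this share in the Cyp4a ratios was not tested.

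In keto, edgeR called 0 of the 6 members (0.180% of genes called; 1 member with an unadjusted p under 0.05; 0 by DESeq2 and by limma-voom), with fitted values from -1.24 ± 0.52 for Cyp4a12a to 0.49 ± 0.50 for Cyp4a32 (n = 2 animals). The difference of the ratios, keto minus chow, was -1.45 ± 0.63 for Cyp4a14, -1.002 ± 0.61 for Cyp4a10, -2.29 ± 0.65 for Cyp4a31 and -0.29 ± 0.64 for Cyp4a32. For Cyp4a12a it was -1.51 ± 0.69 and for Cyp4a12b -1.83 ± 0.84. edgeR called 0 of the 6 here too (0.189% of genes; adjusted p 0.128 to 0.992), DESeq2 and limma-voom called 0, and 4 had an unadjusted p under 0.05. Without chow 3 edgeR called Cyp4a14 (-2.01 ± 0.47), Cyp4a31 (-2.62 ± 0.63) and Cyp4a12a (-2.55 ± 0.64), among 214 genes in all against 20.

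Some of the other gene lists were also heavier in chow 1 and chow 2 than in the other animals. The median heavy over light of the 16 genes of electron supply and omega-oxidation was 1.19 in chow 1, 0.71 in chow 2, -0.10 in chow 3, -0.23 and -0.16 in keto 1 and 2, and -0.44 in S209A. For the 10 hepatocyte markers it was 0.98, 0.80, 0.29, -0.29, -0.32 and -0.28 in the same order. Nuclear or untranslated RNAs ran opposite, with -2.49 and -1.67 in chow 1 and 2, 0.26 in chow 3, 0.73 and -0.12 in keto and 0.73 in S209A. PPARα and its partners had -0.55 and -0.27 in chow 1 and 2, -0.22 in chow 3, -0.09 and -0.03 in keto 1 and 2, and 0.71 in S209A. Lipogenesis genes had 0.62 and 0.47 in chow 1 and 2, 0.05 in chow 3, -0.34 and 0.91 in keto 1 and 2, and 0.86 in S209A. The part of this shift between pools in the Cyp4a ratios was not tested. In chow, Ehhadh had 1.14 ± 0.38, Por 1.14 ± 0.38, Plin5 (a lipid droplet coat protein) 1.17 ± 0.38 and Cpt1a (the gate of mitochondrial fatty acid entry) 0.90 ± 0.37, and edgeR called 0 of the 19 peroxisomal, 0 of the 28 other and 0 of the 16 omega-oxidation genes. In keto the same lists had 0 calls, with Acot1, a cytosolic acyl-CoA thioesterase, at -1.49 ± 0.49 and Fabp1, the liver fatty acid binding protein, at -1.19 ± 0.47. Among male-biased genes, Slco1a1, an organic anion transporter, fell in heavy over light in chow (-1.63 ± 0.42, edgeR adjusted p = 0.0493) and in keto (-2.17 ± 0.54, edgeR adjusted p = 0.0340). Mup7, a major urinary protein with many near-identical copies, fell in keto (-3.19 ± 0.52, edgeR adjusted p = 4.36e-06) and differed between diets (-3.28 ± 0.74, edgeR adjusted p = 0.0109). Among lipogenesis genes Thrsp rose in keto (2.75 ± 0.66, edgeR adjusted p = 0.0258). These keto calls of Mup7, Slco1a1 and Thrsp were all lost without S209A, with a filter at a mean of 50 counts, without the block and with DESeq2. Slco1a1 in chow kept its call in 3 of 14 alternatives, and Mup7 between diets in 5 of 15.

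The cell type and RNA lists held a few more calls of heavy over light. In chow edgeR called Aldh1b1, a mitochondrial aldehyde dehydrogenase (2.20 ± 0.42, adjusted p = 0.000569, kept in 11 of 14 alternatives), Fgb, the fibrinogen beta chain (1.76 ± 0.41, adjusted p = 0.0202, kept in 8 of 15), and Cyp2a4, a female-biased P450 (3.35 ± 0.86, adjusted p = 0.0463, kept in 3 of 13). The non-coding RNAs Rn7sk (-2.05 ± 0.44, adjusted p = 0.00495, kept in 7 of 14) and Kcnq1ot1 (-2.24 ± 0.57, adjusted p = 0.0463, kept in 4 of 13) were lower in heavy. Kcnq1ot1 also differed between diets (3.65 ± 0.87, edgeR adjusted p = 0.0180, kept in 5 of 13). In keto edgeR called Hba-a2, an alpha globin (-2.71 ± 0.65, adjusted p = 0.0218, kept in 6 of 13), and Cyp2b9, another female-biased P450, whose counts were 130 in keto 1 heavy and 0 in the other 3 keto libraries. Aldh1b1, Fgb, Cyp2a4, Rn7sk and both Kcnq1ot1 calls were lost without chow 1.

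The second comparison asked how the diet changed the level within a pool. In heavy, keto over chow was -1.58 ± 1.11 for Cyp4a14, -1.27 ± 1.04 for Cyp4a10, -0.78 ± 0.84 for Cyp4a31 and -0.55 ± 0.85 for Cyp4a32 (log2 ± SE, 3 chow and 2 keto animals). It was -1.06 ± 0.69 for Cyp4a12a and -0.90 ± 0.88 for Cyp4a12b. In light it was -0.41 ± 1.21 for Cyp4a14, -0.36 ± 1.10 for Cyp4a10, 1.30 ± 0.87 for Cyp4a31, -0.16 ± 0.78 for Cyp4a32, 0.25 ± 0.58 for Cyp4a12a and 1.07 ± 0.54 for Cyp4a12b. All 6 values were negative in heavy, where 48.4% of all genes were positive, and 3 of 6 in light, where 44.1% were. Without chow 2, 3 of the heavy values were positive, at 0.09 for Cyp4a12b, 0.41 for Cyp4a31 and 1.02 for Cyp4a32.

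edgeR called 0 of the 6 members in heavy and 0 in light, where 0% of 10552 and 0% of 10551 genes were called. No member had an unadjusted p under 0.05 in either pool (0 and 0, against 862 and 640 genes in all), and DESeq2 and limma-voom called 0 members. The errors of about 1.1 for Cyp4a14 and Cyp4a10 came with the wide chow spread, and leaving out chow 1 moved Cyp4a14 to -2.15 ± 0.64 in heavy and -0.98 ± 0.69 in light, still without a call. Leaving out chow 2 moved Cyp4a14 in heavy to -0.58 ± 1.14, and leaving out chow 3 turned its light value to 0.35 ± 0.74. With errors of this size the direction of the diet difference was not settled for either gene. Nuclear or untranslated RNAs summed to 11060 to 13100 CPM in the keto heavy libraries and 1516 to 2675 in chow heavy. In light they summed to 7370 to 11010 CPM in keto and 1737 to 7358 in chow. Their part in the negative heavy values was not tested.

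**Figure D4:**
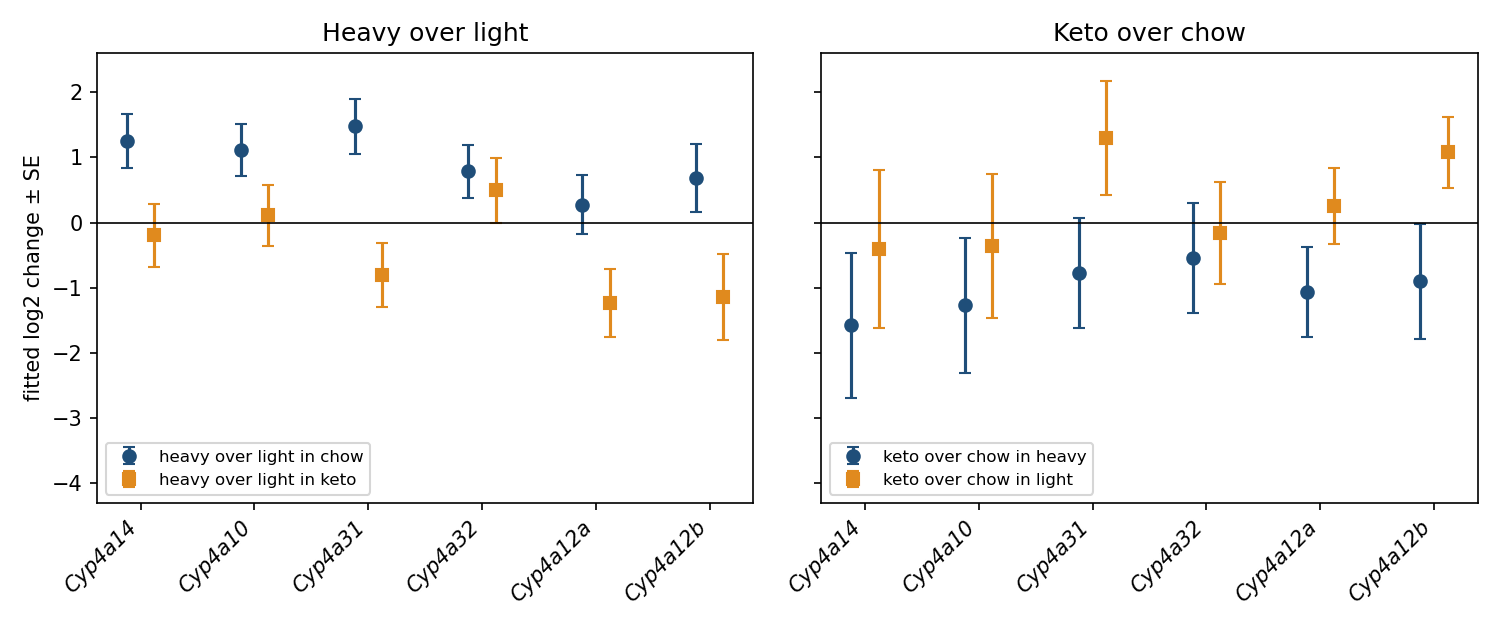
Fitted log2 changes with 1 SE (edgeR): heavy over light in chow and keto on the left, keto over chow in the heavy and light pool on the right. Heavy over light in chow is above 0 for all 6 genes, from 0.27 to 1.48, and the right-hand bars for Cyp4a14 and Cyp4a10 span about 1.1 to each side.

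Other PPARα targets gave no calls between diets either. Over the 28 mitochondrial and other targets edgeR called 0 in heavy and 0 in light, with medians of -0.57 and 0.02 against -0.04 and -0.13 for all genes. For the 19 peroxisomal targets it called 0 and 0, with medians of -0.22 and 0.11. The members with the largest changes were Hadhb, the beta subunit of the mitochondrial trifunctional protein (-3.01 ± 0.81 in heavy and -2.37 ± 0.98 in light), Fabp1 (-2.16 ± 0.59 in heavy), Crot, a peroxisomal carnitine acyltransferase (-1.27 ± 0.51 in heavy), and Acot4, a peroxisomal thioesterase (1.27 ± 0.75 in light). Cyb5r3, the reductase of cytochrome b5, had 2.86 ± 0.58 in heavy and 1.75 ± 0.73 in light, with edgeR adjusted p of 0.267 and 0.796.

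The S209A animal, with no replicate, was set against the 3 chow animals without a test. In heavy all 6 members lay inside the chow range, as did 60.4% of genes. In light Cyp4a14, Cyp4a10, Cyp4a12a and Cyp4a12b lay above all 3 chow animals, 4 of the 6 against 27.3% of genes, and Cyp4a31 and Cyp4a32 inside the range. Above all chow animals in both pools were 0 of the 6 members and 7.31% of genes. Against the chow mean of log2 CPM, S209A was higher by 1.26 in heavy and 2.68 in light for Cyp4a14, by 1.16 and 2.18 for Cyp4a10, and by 0.57 and 1.71 for Cyp4a12a, where 16.0% and 16.4% of genes were more than 2-fold higher. Against the mean of chow 2 and chow 3 the heavy difference turned to -0.52 for Cyp4a14 and -0.43 for Cyp4a10, and the light difference was 0.55 and 0.30. For Cyp4a12a these values were 0.76 in heavy and 1.18 in light. The headers name HISAT2 for S209A and chow 3 and Bowtie2 for chow 1 and chow 2. The Cyp4a12a share of its pair split by header, as given below. Beside chow 3, Cyp4a12a in S209A was at 20.9 against 5.76 CPM in heavy and 39.3 against 23.6 in light. The part of the header in these differences was not tested. For Cyp4a14 in heavy, S209A (712 CPM) lay next to chow 3 (721), and in light it was at 799 against 679. The differences for Cyp4a32 were 0.58 and 1.15, for Cyp4a31 0.66 and 0.73, and for Cyp4a12b -0.35 and 0.91, and without chow 1 they were -0.39 and 0.14, -0.41 and -0.73, and -0.21 and 0.77.

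Near-identical copies can trade reads, and the share of each copy was followed across libraries. Of the counts of the Cyp4a12 pair, Cyp4a12a held 55.0% to 66.7% in the 8 libraries of chow 1, chow 2 and keto. It held 73.1%, 86.6%, 78.1% and 81.2% in chow 3 heavy and light and S209A heavy and light. The shares of the 2 sets did not overlap and followed the header, but some of their Wilson 95% intervals did overlap. The interval was 82.6% to 89.8% in chow 3 light and 54.3% to 70.2% in chow 2 light. It was 64.1% to 80.6% in chow 3 heavy and 57.5% to 74.75% in chow 1 heavy. These intervals cover counting error only. Whether alignment or the animals set this share was not tested, and how reads divide between the copies is uncertain for that reason. Summing the pair before the fit left heavy over light and keto over chow without a call. Cyp4a14 held 52.2% to 70.4% of the counts of Cyp4a10 and Cyp4a14 in all 12 libraries: 64.2% to 70.4% in the 4 with a HISAT2 header and 52.2% to 69.0% in the other 8, where keto 2 light alone was above 63.3%. Of the counts of Cyp4a10, Cyp4a31 and Cyp4a32, Cyp4a32 held 3.93% to 5.31% in the 4 libraries with a HISAT2 header and 6.21% to 25.0% in the other 8. These shares again did not overlap, though some of their Wilson intervals did. Cyp4a31 held 2.40% to 6.199% and 5.31% to 18.5%. The Cyp4a12 pair held 34.6% and 39.1% of all Cyp4a counts in chow 1 heavy and light and 0.712% to 5.64% in the other 10 libraries.

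**Figure D5:**
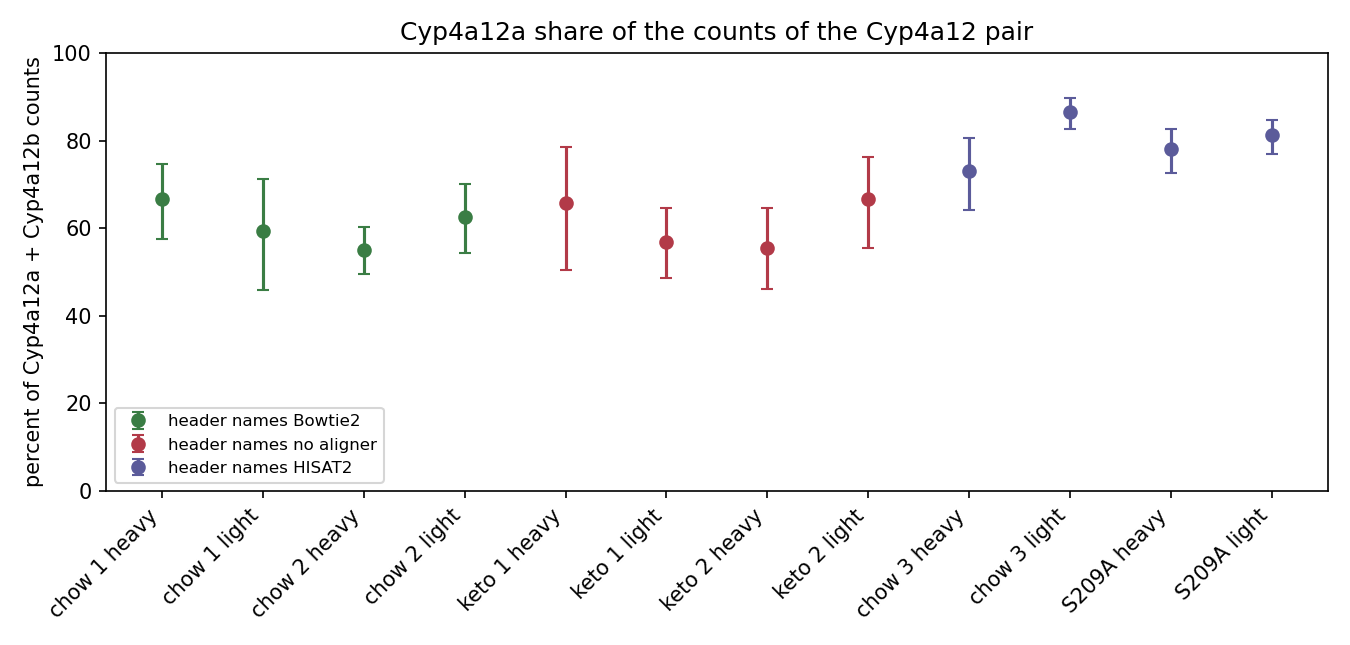
Percent of the summed Cyp4a12a and Cyp4a12b counts that fell on Cyp4a12a in each library, with Wilson 95% intervals; colour gives what the file header names. The 4 libraries with a HISAT2 header lie between 73.1% and 86.6% and the other 8 between 55.0% and 66.7%.

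The rest of the CYP4 family did not follow Cyp4a14 down in chow 1. Of 15 other CYP4 genes counted, 8 had 0 counts in all libraries and 6 passed the filter, and 0 of the 6 were lowest in chow 1 in both pools (5.62% of genes were). Cyp4v3, a fatty acid omega-hydroxylase, was at 62.0 CPM over both pools in chow 1, 82.8 in chow 2, 66.0 in chow 3, 39.2 and 39.3 in keto 1 and 2, and 97.3 in S209A. Cyp4f14, a leukotriene omega-hydroxylase, was highest in chow 1 at 33.4 CPM, with 14.2 and 6.70 in chow 2 and 3, 4.91 and 7.12 in keto and 17.0 in S209A. Its keto over chow in heavy was -2.25 ± 0.81 and edgeR called 0 of the 6 in any of the 5 comparisons.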

How the data were processed

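RNA from a heavy and a light gradient pool of 6 livers was sequenced, 12 libraries in all. The authors deposited 1 table per library, with whole-number counts for each Entrez ID. The submitters' processing notes list mm10 and, as tools, HISAT2, StringTie and Trimmomatic; per the file headers, chow 1 and 2 came from Bowtie2, chow 3 and S209A from HISAT2, and keto 1 and 2 name no aligner. How reads were counted, on which strand, and what was done with multiply aligned reads is not given in the sources used here, so near-identical Cyp4a copies are uncertain. Per the labels' protocols a stranded total RNA kit took 10 ng. Of 27179 IDs, 25275 matched RefSeq (GRCm38.p6), which gave symbols and positions, and 1904 did not; 0 ERCC IDs were present.

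Genes were kept by edgeR 4.0.16's filterByExpr at 10 counts over groups (10555) and scaled by TMM. edgeR's quasi-likelihood test (R 4.3.3), two-sided, with Benjamini-Hochberg adjustment over all genes at 0.05, set heavy against light with the animal as a block in 1 model over 12 libraries, and keto against chow separately in the heavy and the light libraries, S209A with a level of its own. SE was taken as |log2 change| divided by √F. Log2 CPM used a prior count of 2. The heavy and light library of 1 animal belong together by their titles; deviations from the group mean were correlated across genes at 0.31, 0.30 and 0.46 in chow 1, 2 and 3 and at 0.06 in keto 1 and keto 2. Only the numbers in the titles tell the livers of a group apart, so p-values measure the spread between these samples. DESeq2 1.42.0, limma-voom (limma 3.58.1), other scalings and filters, summed copies and leaving out each animal were alternatives; the fits were tested on simulated data. Shares have Wilson intervals (scipy 1.17.1), and intervals cover counting error only.

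The members and all gene lists were chosen with earlier results of these data known. Genes were named by rule: all members, list genes that passed a comparison or, where none did, up to 4 with a mean of at least 50 counts and the largest change, and the 5 genes most like Cyp4a14 and Cyp4a12a among upper-half expressed genes, without predicted genes and pseudogenes (1 is not reported here). The list genes printed are a part of those the rule names. List genes shown by animal were chosen after their values were seen. The label gives a time of 0 h and the protocol 24 h, so the time label was not used.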

Additional observations from a re-analysis of the deposited data

Results flagged for a closer look

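For Cyp4a14 and Cyp4a31 the heavy over light ratio lay above 0 in each of the 3 chow animals and below 0 in each of the 2 keto animals. A full split of signs between the diets, in either direction, held for 7.30% of all genes. The fitted difference, keto minus chow, was -1.45 for Cyp4a14 (edgeR adjusted p = 0.750) and -2.29 for Cyp4a31 (edgeR adjusted p = 0.128), so neither difference passed the test. In chow 3 the Cyp4a14 ratio was 0.09, and in keto 1 the Cyp4a31 ratio was -0.11 with a counting error of 0.17.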

How the results depend on the processing

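Counts of members called by edgeR stayed at 0 in all 5 comparisons under the other settings, with these exceptions. In chow, heavy over light called 2 members with DESeq2, 3 without chow 3 (0 to 3 over animals left out) and 3 without the libraries that have a HISAT2 header, a setting chosen after seeing the data. For keto minus chow it was 3 without chow 3 (0 to 3 over animals left out) and 2 without the HISAT2 headers. Counts over all genes moved more. For heavy over light in chow the count was 24, with 94 by DESeq2, 11 without the low-count filter, 0 at a mean of at least 50 counts, 6 on nuclear protein-coding genes, 220 without the HISAT2 headers and 3 to 407 over animals left out. In keto it was 19, with 3 by DESeq2, 7 by limma-voom, 0 at a mean of 50, 2 on nuclear protein-coding genes, 8 without the HISAT2 headers and 0 to 33 over animals left out. For keto minus chow it was 20, with 10 by DESeq2, 0 at a mean of 50, 5 on nuclear protein-coding genes, 103 without the HISAT2 headers and 0 to 214 over animals left out. Without the replicate block, heavy and light unpaired, these 3 counts were 0, 0 and 0. For keto over chow in heavy it was 0, with 98 by DESeq2, 4 by limma-voom, 112 without the filter, 126 with the title wording as a batch and 0 to 67 over animals left out. In light it was 0, with 39 without the filter. With the title number as a replicate block across diets the counts were 83 in heavy and 5 in light. Deviations of same-numbered chow and keto livers correlated at -0.01 in heavy and -0.03 in light. These correlations show no pairing across diets and cannot exclude one. The cause of these moves was not tested. Of 447 member values under other settings 27 turned sign and 0 of those were calls. Cyp4a14, keto over chow in light, ran from -0.98 without chow 1 to 2.34 with the title number block. In heavy, keto over chow ran over the other settings from -2.15 to 0.34 for Cyp4a14 and from -1.83 to 0.34 for Cyp4a10. Few counts limit every member in chow 1, whose libraries were not the smallest in nuclear protein-coding counts. Cyp4a31, Cyp4a32 and Cyp4a12b had 3 to 37 counts per library there, and the other members 32 to 100.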
